A study of Mus musculus with 36 samples.

Results

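The genes described are 10 factors that write, guide or keep repressive chromatin: *Trim28*, *Setdb1*, *Suv39h1*, *Suv39h2*, *Ehmt2*, *Uhrf1*, *Dnmt1*, *Dnmt3b*, *Atrx* and *Smchd1*. They were chosen by name from the gene column of the count tables, and all 10 were found among the 24421 genes listed for each tissue. Poly(A) RNA was sequenced from the cerebellum and the hippocampus of 18 adult C57Bl/6 mice, giving 36 libraries. Each genotype had 6 animals, 3 males and 3 females, and every animal gave both tissues under 1 label number, such as Sample_1160. The question was whether loss of *Pogz* changes the RNA of these factors in either tissue.

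Controls were Pogzfl/fl and carried no Cre. The cKO+/- mice were NesCre/+; Pogzfl/+ and the cKO-/- mice were NesCre/+; Pogzfl/fl. Cre was driven by the Nestin promoter, which is active in neural progenitors, so that neurons and the glia that share their origin lose the floxed exons while microglia, vessels and meninges in the same dissected tissue keep them. Both mutant groups carry Cre and the controls do not, so in a comparison with the controls an effect of Cre and an effect of *Pogz* loss cannot be told apart. The mutant groups share Cre and differ from each other in their *Pogz* alleles. The controls also differ from the cKO+/- mice in carrying a pair of floxed alleles.

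Methylation of lysine 9 of histone H3 (H3K9) and methylation of cytosine in CG pairs are the main marks by which repeats, imprinted genes and germline genes are kept silent. Zinc finger proteins of the KRAB family recruit TRIM28, also called KAP1, which brings the H3K9 methyltransferase SETDB1. SUV39H1 and SUV39H2 methylate H3K9 in pericentric heterochromatin, and EHMT2, also called G9a, does so with its partner EHMT1 in euchromatin. DNMT3B sets DNA methylation de novo, DNMT1 copies it at replication, and UHRF1 recruits DNMT1 to newly copied DNA. ATRX deposits a replacement form of histone H3 at repeats with DAXX, and SMCHD1 keeps the inactive X chromosome and some imprinted clusters silent. POGZ, a zinc finger protein with a transposase-derived domain, binds the heterochromatin protein HP1, which reads methylated H3K9. In adult brain most cells have left the cell cycle, and factors tied to replication can be low there.

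The coordinates in the tables are those of the mouse build GRCm38. *Trim28* lies at chr7:13024152-13031032 on the plus strand, *Ehmt2* at chr17:34898492-34914050 on the plus strand, *Setdb1* at chr3:95323525-95357202 on the minus strand and *Suv39h2* at chr2:3455815-3474986 on the minus strand. *Uhrf1* lies at chr17:56303337-56323486 on the plus strand, *Dnmt1* at chr9:20907206-20959888 on the minus strand, *Dnmt3b* at chr2:153649449-153687730 on the plus strand and *Smchd1* at chr17:71344493-71475343 on the minus strand. *Suv39h1* at chrX:8061171-8074760 and *Atrx* at chrX:105797615-105929372, both on the minus strand, are X-linked. Exons of *Setdb1* share 44 bases with *Cers2* and exons of *Suv39h2* share 210 bases with *Dclre1c*, each on the other strand. Whether the counting used strand is not given in the sources used here, so the counts of *Setdb1* and *Suv39h2* carry that uncertainty.

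Promoter windows from RefSeq, on GRCm38.p6 and reaching from 250 bases before a start site to 50 bases after it, were found for all 10 factors, with 15 windows in all because some genes have several starts. The windows of the factors were rich in CG pairs, with a median of 28 in 300 bases against 7 over the 32851 windows of all genes. The motif TTTCGCGC, a form of the site known for E2F factors at genes of S phase, was searched on both strands, its reverse being GCGCGAAA. It was present in 1 window of *Uhrf1* and 1 of *Dnmt1* and in none of the other 13 windows, while 0.323% of all windows held it. The motif itself contains CG pairs, and its share among windows equally rich in CG was not taken. The 2 windows are shown because these genes are the replication-linked pair of the group, and the capitals mark the motif. The *Uhrf1* window is chr17:56304063-56304362 on the plus strand and the *Dnmt1* window is chr9:20952574-20952873 on the minus strand.
Uhrf1: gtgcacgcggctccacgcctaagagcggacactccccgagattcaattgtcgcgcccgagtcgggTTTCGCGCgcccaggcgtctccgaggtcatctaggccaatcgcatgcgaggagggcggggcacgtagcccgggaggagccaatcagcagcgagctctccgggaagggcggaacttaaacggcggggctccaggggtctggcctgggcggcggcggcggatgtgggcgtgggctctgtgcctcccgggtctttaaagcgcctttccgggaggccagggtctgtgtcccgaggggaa
Dnmt1: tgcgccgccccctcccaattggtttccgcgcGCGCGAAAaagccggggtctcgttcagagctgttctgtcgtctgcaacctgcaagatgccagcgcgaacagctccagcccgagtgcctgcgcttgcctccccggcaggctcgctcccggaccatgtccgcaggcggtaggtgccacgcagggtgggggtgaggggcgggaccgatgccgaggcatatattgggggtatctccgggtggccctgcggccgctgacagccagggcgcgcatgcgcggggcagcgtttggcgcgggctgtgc
Each window held 33 CG pairs. A match of these letters is a description of the window and no evidence that a factor binds there.

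*Pogz* itself was checked first. In the cerebellum its level was 89.6 to 129.6 CPM (counts scaled to the size of the library) in the 6 controls, 66.4 to 81.5 in the cKO+/- libraries and 57.0 to 74.0 in the cKO-/- libraries. In the hippocampus the ranges were 89.0 to 92.8, 74.0 to 80.2 and, for 5 cKO-/- libraries, 58.7 to 67.7 CPM. Both mutant groups were below the controls in both tissues without overlap. The tables count whole genes and so include reads from the exons outside the loxP sites, which remain after recombination. Per allele lost, the log2 difference of *Pogz* was −0.30 (SE 0.046) in the cerebellum and −0.28 (SE 0.020) in the hippocampus, with adjusted p = 0.000356 and 1.79e-07 in edgeR's quasi-likelihood test.

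Depth was 21421850 to 32544929 counted reads per cerebellar library and 17609321 to 45544188 per hippocampal library. The hippocampal cKO-/- library of animal Sample_1160 stood apart: the interquartile range of its log2 differences from the tissue's median library was 1.3, against 0.109 to 0.333 in the other 17. In it *Trim28* was at 277 CPM and *Atrx* at 82.1 CPM, outside the range of every other hippocampal library. So were, among others, *Ehmt2* at 375 CPM, *Setdb1* at 36.5, *Dnmt1* at 35.2 and *Smchd1* at 32.7. Its values were left out of the hippocampal results, and the signs and calls that they change are given beside those results or at the end. The hippocampal control of animal Sample_1129 held 49.4 CPM of *Gabra6*, a gene of cerebellar granule cells, and 4557 CPM of *Ttr*, a gene of choroid plexus. *Ttr* was also high in the hippocampal libraries of Sample_1385 and Sample_1170, at 4542 and 2169 CPM, and at 2177 to 2935 CPM in the cerebellar libraries of Sample_933, Sample_936 and Sample_1433. In the remaining libraries it was at most 1018 CPM. The tissue labels were compared with their markers, and all 5 markers of granule cells and all 5 of Purkinje cells were lower in the hippocampal than in the cerebellar controls, and all 5 of hippocampal neurons were higher. In bulk tissue, fewer cells of a type and less RNA per cell cannot be told apart.

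In control mice the 10 factors spanned a wide range of levels. *Trim28* was the most abundant in the cerebellum, at a median of 56.1 RPKM (CPM per kilobase of exon, a level per length) over 6 animals, with a range of 51.7 to 58.5. *Ehmt2* followed at 33.3 RPKM (29.0 to 37.0) and *Atrx* at 30.4 (26.0 to 39.7), and these neighbours overlapped. *Dnmt1* (17.5), *Setdb1* (12.5), *Smchd1* (9.79) and *Suv39h1* (8.80) formed a middle tier in which each overlapped the next. The lowest were *Suv39h2* at 1.54 RPKM, *Dnmt3b* at 0.518 and *Uhrf1* at 0.171, which did not overlap each other. *Trim28* stood at percentile 94.0 of the genes with counts in this tissue, *Dnmt1* at percentile 75.9 and *Uhrf1* at percentile 20.7.

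In the hippocampus the order changed at the top. *Ehmt2* led at a median of 66.3 RPKM (61.2 to 68.5), above *Trim28* at 54.6 (52.8 to 57.6) without overlap. *Atrx* followed at 22.5 RPKM, then *Setdb1* at 12.1 and *Dnmt1* at 10.5, which overlapped each other. *Suv39h1* at 7.69 and *Smchd1* at 7.51 overlapped as well. *Suv39h2* was at 1.68 RPKM, and the lowest were *Uhrf1* at 0.328 and *Dnmt3b* at 0.243, which overlapped. The plot of levels per length in controls shows these tiers.

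**Figure D1:**
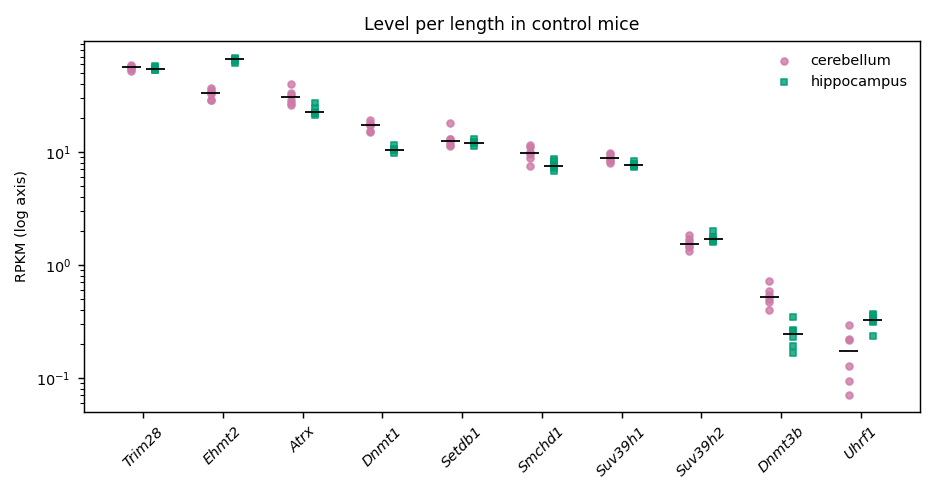
Level per length (RPKM, log axis) of the 10 silencing factors in the control mice, with 1 point per library, 6 libraries per tissue, and a bar at the median. *Ehmt2* sits near 33.3 RPKM in the cerebellum and 66.3 in the hippocampus, while *Suv39h2*, *Dnmt3b* and *Uhrf1* lie below the rest in both tissues.

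The 2 tissues of the control mice were then compared. The hippocampus had more *Ehmt2* and *Uhrf1* and less *Dnmt3b*, *Dnmt1*, *Atrx*, *Smchd1* and *Suv39h1* than the cerebellum. These 7 of 10 factors passed the test (edgeR's quasi-likelihood test, Benjamini-Hochberg adjusted p under 0.05), 2 higher and 5 lower. Genes above 1 CPM in at least 6 libraries of either tissue were tested, a limit that *Uhrf1* met in the hippocampus alone. Tissue differences were the rule among all genes, 72.1% of the 14779 tested passing, 35.5% higher and 36.6% lower, so a share of this size is close to the background. The members' median log2 difference was −0.16, against −0.021 over all genes.

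*Ehmt2*, the gene of G9a, was 2.0-fold higher in the hippocampus (95% interval 1.80 to 2.22, adjusted p = 1.32e-08). Its partner *Ehmt1* did not pass, at a log2 difference of −0.13 (SE 0.062, adjusted p = 0.0861). The ratio of *Ehmt2* to *Ehmt1* per length was 6.37 ± 0.295 in the hippocampal and 2.93 ± 0.358 in the cerebellar controls (SD, n = 6). These ratios did not overlap, the lowest hippocampal one being 5.94 and the highest cerebellar one 3.46.

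The DNA methyltransferases were lower in the hippocampus. *Dnmt3b* was at 0.446 of its cerebellar level (95% interval 0.337 to 0.591, adjusted p = 7.45e-05), and *Dnmt1* at 0.619 (0.560 to 0.683, adjusted p = 4.03e-07). *Dnmt3a*, the main de novo enzyme of neurons, went with them at a log2 difference of −0.74 (SE 0.076, adjusted p = 9.58e-07). The ratio of *Dnmt1* to *Dnmt3a* per length was 1.05 ± 0.0985 in the hippocampal and 1.02 ± 0.073 in the cerebellar controls (SD, n = 6). *Uhrf1*, whose product recruits DNMT1, went the other way, at 1.89-fold (1.22 to 2.91, adjusted p = 0.0118). Without the control animal Sample_1172 that call was lost, at a log2 difference of 0.74 and adjusted p = 0.0551. *Uhrf1* entered this test only through the hippocampus, the tissue where it was higher, and had 7 to 35 reads per cerebellar control library. *Uhrf2*, its paralogue, was the far more abundant of the pair, exceeding *Uhrf1* per length by 60.1 ± 12.6 times in the hippocampal and 121 ± 64.9 times in the cerebellar controls (SD, n = 6).

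*Atrx* was at 0.749 of its cerebellar level (95% interval 0.643 to 0.872, adjusted p = 0.00224) and *Smchd1* at 0.784 (0.677 to 0.909, adjusted p = 0.00575). *Suv39h1* was at 0.868 (0.789 to 0.954, adjusted p = 0.0106), a call that was lost without the control animal Sample_1155 (log2 difference −0.16, adjusted p = 0.0603). For *Trim28* (0.986, 0.919 to 1.06), *Setdb1* (0.922, 0.803 to 1.06) and *Suv39h2* (1.11, 0.952 to 1.28) the intervals included no change. Markers of dividing cells were split in the same comparison: of 13 tested, 6 were higher in the hippocampus, among them *Mki67* at a log2 difference of 3.22, and 5 were lower, among them *Mcm5* at −1.29. The part of cell composition in these differences was not tested.

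Loss of *Pogz* moved none of the 10 factors past the test in either tissue. In the cerebellum 0 of the 9 factors tested were called per allele lost, against 13.7% of all 14027 genes tested, with edgeR's quasi-likelihood test. At an unadjusted p under 0.05 there were 3, *Setdb1*, *Suv39h1* and *Dnmt3b*, against 30.2% of all genes. DESeq2 called 2 of these, *Setdb1* and *Dnmt3b*, and 18.3% of all genes. In the hippocampus 0 of 10 were called, against 4.44% of 14339 genes, 1 had an unadjusted p under 0.05 (*Trim28*), against 20.1%, and DESeq2 called 0, against 7.36%. The tenth factor in the cerebellum, *Uhrf1*, had only 7 to 35 reads per library there and was below the filter of 1 CPM in at least 6 libraries.

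In the cerebellum all 9 estimates lay below zero, with a median log2 difference of −0.058 per allele lost against 0.00087 over all genes. The 9 came from the same libraries, so their signs are not independent. With a covariate for animals numbered outside the range of the controls, *Suv39h2*, *Atrx* and *Smchd1* were above zero, at 0.060, 0.020 and 0.018. In the hippocampus 5 lay above and 5 below, with a median of 0.00034 against 0.0017. The typical size was no larger than that of other genes: the median absolute difference was 0.058 against 0.070 in the cerebellum and 0.048 against 0.049 in the hippocampus. The plot of the effects with their intervals shows the factors beside *Pogz*.

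**Figure D2:**
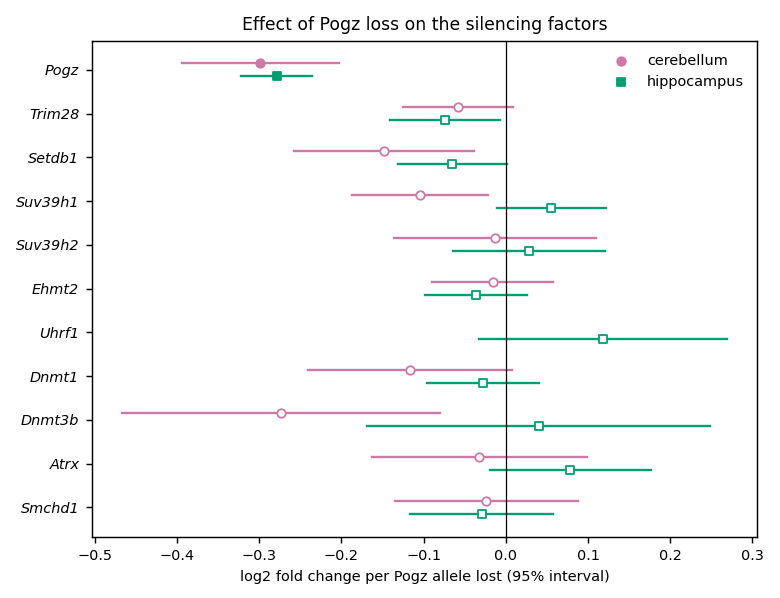
Log2 fold change per *Pogz* allele lost (x axis) with its 95% interval for *Pogz* and the 10 factors in the cerebellum (circles) and the hippocampus (squares). Filled symbols mark an adjusted p under 0.05, reached by *Pogz* alone, at −0.30 and −0.28, and *Uhrf1* has no cerebellar value because it was not tested there.

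Among the H3K9 factors in the cerebellum, *Setdb1* had the largest difference per allele lost and in cKO-/- mice, while in cKO+/- mice *Suv39h2* had a larger one (log2 difference −0.23, against −0.18 for *Setdb1*). Its level was 54.2 to 89.5 CPM in the controls (median 60.4), 52.3 to 60.5 in the cKO+/- mice (median 55.7) and 42.7 to 58.2 in the cKO-/- mice (median 51.0). The groups overlapped, and the highest control, animal Sample_1129, was far above the other 5, which lay between 54.2 and 62.3. Per allele lost the log2 difference was −0.15 (SE 0.052, 95% interval −0.26 to −0.039), with adjusted p = 0.0645 in edgeR's quasi-likelihood test and 0.0457 in DESeq2. Without the control animal Sample_1129 it was −0.087. Without animal Sample_1160, Sample_1172 or Sample_1219 it was −0.17 each, with adjusted p = 0.0442, 0.0494 and 0.0398. *Setdb1* lies 440 kb from *Pogz* on chromosome 3. Of the 46 genes tested within 1 Mb of *Pogz*, 6 were called per allele lost in this tissue, no larger a share than the 13.7% of all genes. Their median log2 difference over the 46 was −0.063, against 0.00087 over all genes. In cKO-/- mice 7 of the 46 were called, against 12.7% of all genes, at a median of −0.13 against 0.0018.

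*Suv39h1* was at 27.3 to 33.6 CPM in the cerebellar controls (median 30.6), 25.5 to 31.8 in cKO+/- (median 27.6) and 23.4 to 32.8 in cKO-/- (median 25.6). The cKO-/- library of animal Sample_1219 was the highest of its group, and the other 5 lay at or below 27.1. The log2 difference per allele lost was −0.10 (SE 0.040, adjusted p = 0.0842 in edgeR's quasi-likelihood test). Without animal Sample_1219 it was −0.14, with adjusted p = 0.0189. *Suv39h2*, the paralogue with the same substrate, gave −0.014 (SE 0.059), and its interval ran from −0.14 to 0.11. Its level was 5.86 to 8.12 CPM in controls, 5.51 to 6.34 in cKO+/- and 5.50 to 7.99 in cKO-/-.

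*Trim28* was at 171 to 202 CPM in the controls (median 188), 166 to 186 in cKO+/- (median 174) and 149 to 197 in cKO-/- (median 169), with a log2 difference of −0.058 per allele lost (SE 0.032, interval −0.13 to 0.0090). *Ehmt2* was among the steadiest, at 138 ± 15.6, 134 ± 6.98 and 135 ± 9.62 CPM in controls, cKO+/- and cKO-/- (SD, n = 6). Its log2 difference per allele lost was −0.016, and the interval of −0.090 to 0.057 leaves room for a fold between 0.940 and 1.04 per allele.

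Of the DNA methylation factors, *Dnmt3b* had the lowest adjusted p of the group in the cerebellum. Its level was 1.77 to 3.30 CPM in the controls (median 2.32), 1.27 to 2.11 in cKO+/- (median 1.59) and 1.22 to 2.04 in cKO-/- (median 1.60). In each mutant group 4 of the 6 libraries lay below every control and the other 2 lay among them, and the level rested on 33 to 87 reads per library. Per allele lost the log2 difference was −0.27 (SE 0.093, interval −0.47 to −0.080), with adjusted p = 0.0545 in edgeR's quasi-likelihood test and 0.0403 in DESeq2. In the comparison of genotypes the cKO+/- group was at 0.677 of control (95% interval 0.524 to 0.875, adjusted p = 0.276) and the cKO-/- group at 0.688 (0.532 to 0.891, adjusted p = 0.0526). Loss of 1 allele and of both gave point estimates this close, and their difference was not tested. The call came and went with single animals: without animal Sample_938, Sample_1160, Sample_1170, Sample_1379 or Sample_1433 the adjusted p was 0.0494, 0.0376, 0.0405, 0.0400 and 0.0498. In the other 13 of the 18 fits without 1 animal it did not pass. The weakest difference, −0.21, came without Sample_1129, the highest control at 3.30 CPM.

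*Dnmt1* was at 97.4 to 128 CPM in the cerebellar controls (median 113), 95.2 to 126 in cKO+/- (median 111) and 76.2 to 124 in cKO-/- (median 89.9). In the cKO-/- group 3 libraries lay at 76.2, 77.5 and 78.3 CPM, below every control, and the other 3 lay within the control range. The low libraries were those of animals Sample_1379, Sample_1385 and Sample_1371, all numbered above the range of the controls (Sample_1120 to Sample_1219). The cKO-/- libraries within that range, of Sample_1160 and Sample_1219, were at 112 and 124 CPM. That of Sample_936, numbered below it, was at 102 CPM. A fit with a covariate for animal numbers is given further below. In the cerebellum the interquartile range of log2 differences was 0.335 to 0.404 in the 3 low libraries, against 0.142 to 0.436 in the controls. *Gabra6* was at 498 to 708 CPM in the 3 low libraries, against 909.6 to 1040.4 in the controls. The part of these in the level of *Dnmt1* was not tested. The log2 difference per allele lost was −0.12 (SE 0.059, interval −0.24 to 0.0073, adjusted p = 0.191 in edgeR's quasi-likelihood test). *Uhrf1* was at 0.264 to 1.12 CPM in controls, 0.399 to 0.906 in cKO+/- and 0.266 to 0.635 in cKO-/-. With no filter on low counts its difference was −0.21 per allele lost, with a wide interval of −0.55 to 0.14.

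*Atrx* was at 276 to 433 CPM in the cerebellar controls, 292 to 349 in cKO+/- and 224 to 399.8 in cKO-/-. *Smchd1* was at 55.3 to 83.7, 66.4 to 81.6 and 56.2 to 81.9 CPM. Neither separated the genotypes, and their log2 differences per allele lost were −0.032 (interval −0.16 to 0.099) and −0.024 (−0.14 to 0.087). Their sign depended on single libraries: without animal Sample_1129 or Sample_1385 *Atrx* was at 0.012 each, and without animal Sample_1379 or Sample_1385 *Smchd1* was at 0.0017 and 0.0067.

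**Figure D3:**
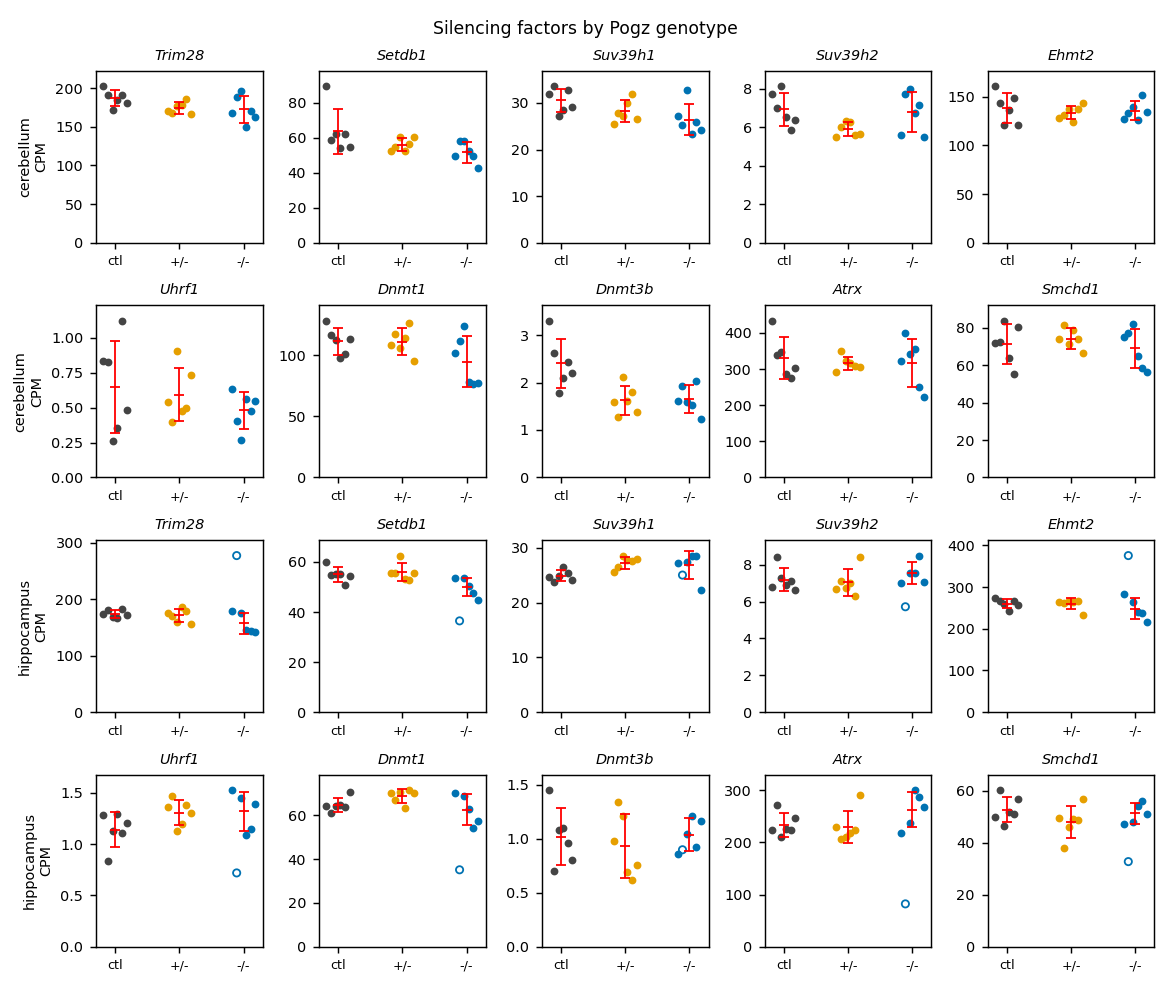
CPM of the 10 factors by genotype (ctl, control; +/-, cKO+/-; -/-, cKO-/-) in the cerebellum (upper 2 rows) and hippocampus (lower 2 rows), with 1 point per library and the mean and SD in red. The open circle is the hippocampal library of animal Sample_1160, which is not in the mean, for example *Atrx* at 82.1 CPM, and the genotypes overlap in every panel.

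In the hippocampus *Trim28* had the lowest p of the group. It was at 166 to 182 CPM in the controls (median 173) and 156 to 186 in cKO+/- (median 172). The 5 cKO-/- libraries were at 142, 144, 145, 176 and 179 CPM, so that 3 lay below every control and 2 among them. The 3 were of animals Sample_1385, Sample_1379 and Sample_1371, which were also the low ones for cerebellar *Dnmt1* and are numbered above every control. Their hippocampal libraries had 17609321 to 26090969 counted reads, against 30389941 to 45544188 in the controls. The interquartile range of log2 differences was 0.260 to 0.333 in them, against 0.144 to 0.257 in the controls. The part of depth and spread in these levels was not tested. The log2 difference per allele lost was −0.074 (SE 0.032, interval −0.14 to −0.0071, adjusted p = 0.205 in edgeR's quasi-likelihood test). With the library of animal Sample_1160 included it was 0.014, in the other direction, and with a covariate for animals numbered outside the range of the controls (Sample_1120 to Sample_1219) it was −0.031 (adjusted p = 0.970).

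*Setdb1* was at 50.8 to 59.8 CPM in the hippocampal controls (median 55.0) and 53.0 to 62.6 in cKO+/- (median 55.7). The cKO-/- libraries were at 44.9, 47.6, 50.3, 53.4 and 53.5 CPM, the lowest 3 of them below every control. These 3 were again of animals Sample_1385, Sample_1379 and Sample_1371, numbered above every control. Those at 53.4 and 53.5 CPM were of Sample_936 and Sample_1219. The difference was −0.065 per allele lost (SE 0.032, adjusted p = 0.257), and −0.10 with animal Sample_1160 included. In this tissue 1 of the 44 genes tested within 1 Mb of *Pogz* was called, against 4.44% of all genes, and it was not *Setdb1*. *Ehmt2* was at 242 to 273 CPM in controls, 233 to 268 in cKO+/- and 217 to 282 in cKO-/-, with a difference of −0.036 (SE 0.030, interval −0.098 to 0.026). With animal Sample_1160 included the *Ehmt2* difference was 0.025, in the other direction.

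*Suv39h1* had a positive estimate in the hippocampus. It was at 23.7 to 26.6 CPM in the controls (median 24.9), 25.6 to 28.5 in cKO+/- (median 27.7) and at 22.4, 27.2, 27.5, 28.5 and 28.6 in the cKO-/- libraries. The lowest mutant library, of animal Sample_1385, was also the lowest of the tissue. Per allele lost the log2 difference was 0.055 (SE 0.032, interval −0.011 to 0.12, adjusted p = 0.341 in edgeR's quasi-likelihood test), and without animal Sample_1385 it was 0.092 with adjusted p = 0.0436. *Suv39h2* was at 6.64 to 8.43 CPM in controls, 6.29 to 8.44 in cKO+/- and 7.03 to 8.50 in cKO-/-, with a difference of 0.028 (SE 0.044).

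The DNA methylation factors overlapped among hippocampal genotypes. *Uhrf1* was at 1.14 ± 0.169 CPM in controls, 1.31 ± 0.124 in cKO+/- (SD, n = 6) and 1.32 ± 0.19 in cKO-/- (SD, n = 5), from 20 to 57 reads per library, and its difference per allele lost was 0.12 (interval −0.033 to 0.27). *Dnmt1* was at 60.9 to 70.9 CPM in controls, 63.2 to 71.5 in cKO+/- and 54.1 to 70.1 in cKO-/-, with a difference of −0.028 (interval −0.096 to 0.040). *Dnmt3b* was at 0.702 to 1.45, 0.614 to 1.34 and 0.859 to 1.21 CPM, with a difference of 0.040 (interval −0.17 to 0.25). *Atrx* was at 209.9 to 272 CPM in controls, 207 to 291 in cKO+/- and 219 to 299.6 in cKO-/-, with a difference of 0.078 (interval −0.020 to 0.18). With animal Sample_1160 included the *Atrx* difference was −0.0051. *Smchd1* was at 46.6 to 60.2, 38.1 to 56.9 and 47.0 to 56.0 CPM, with a difference of −0.029 (interval −0.12 to 0.058).

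Genotypes were also compared as groups. Against the controls, 0 of 9 factors were called in cerebellar cKO+/- and cKO-/- mice, where 0.342% and 12.7% of all genes passed edgeR's quasi-likelihood test, and 0 of 10 in hippocampal cKO+/- and cKO-/- mice, where 0.0349% and 4.87% passed. At an unadjusted p under 0.05 there were 2 and 3 in the cerebellum, against 11.6% and 29.8% of all genes, and 1 and 2 in the hippocampus, against 10% and 21.6%. DESeq2 called 1 of them, *Dnmt3b* in cerebellar cKO-/- mice (adjusted p = 0.0348), where it called 18% of all genes. In edgeR the count for cerebellar cKO-/- mice became 1 without animal Sample_1160, Sample_1170 or Sample_1379 and 2 without animal Sample_1219. Over all genes those fits called 2476, 1894, 1452 and 2173, against 1780 of 14027 with every animal. No factor had all libraries of a mutant group above or below all controls, which 1.15% and 4.58% of genes had in cerebellar cKO+/- and cKO-/- mice and 0.523% and 3.65% in hippocampal ones. In hippocampal cKO-/- mice the fold was 0.899 for *Trim28* (95% interval 0.820 to 0.987) and 0.909 for *Setdb1* (0.834 to 0.990), unadjusted intervals that lay below 1. For the other 8 factors the interval included 1, from narrow ones such as *Ehmt2* (0.950, 0.870 to 1.04) to wide ones such as *Uhrf1* (1.17, 0.947 to 1.45) and *Dnmt3b* (1.07, 0.799 to 1.44). In cerebellar cKO-/- mice *Setdb1* (0.815, 0.697 to 0.953), *Suv39h1* (0.866, 0.769 to 0.9747) and *Dnmt3b* had intervals below 1. These comparisons share their controls.

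Whether the effect differed between the tissues was tested in 1 fit over 35 libraries. Of 9 factors 0 were called, against 1.49% of the 13587 genes tested, with edgeR's quasi-likelihood test, and DESeq2 called 0 as well. At an unadjusted p under 0.05 there were 2, against 13.6% of all genes. *Suv39h1* differed by 0.15 on the log2 scale per allele lost (hippocampus minus cerebellum, SE 0.051, interval 0.047 to 0.26, adjusted p = 0.149), and without animal Sample_1219 by 0.18 with adjusted p = 0.0468. *Dnmt3b* differed by 0.31 (SE 0.13, adjusted p = 0.287). For the other 7 the intervals included zero.

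*Suv39h1* and *Atrx* are X-linked, and *Smchd1* acts on the inactive X chromosome, so the sexes were compared. No factor differed between females and males in edgeR's quasi-likelihood test, against 0.0499% of all genes called in the cerebellum and 0.907% in the hippocampus, and DESeq2 called 0. *Atrx* was at 326 ± 66.7 CPM in females and 316 ± 25.9 in males in the cerebellum (SD, n = 9 each). At an unadjusted p under 0.05 there were 0 of 9 in the cerebellum, against 3.39% of all genes, and 1 of 10 in the hippocampus, against 16.1%, *Dnmt3b*, which was at 1.12 ± 0.237 CPM in 8 females and 0.881 ± 0.186 in 9 males (log2 difference 0.36, adjusted p = 0.277). The effect of *Pogz* loss did not differ between the sexes past the threshold for any factor, with 0 at an unadjusted p under 0.05 and 0 by DESeq2 in both tissues. No gene was called for that interaction in either tissue, against 3.97% and 5.37% at an unadjusted p under 0.05.

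The partners of these factors were examined as lists chosen by name. Over all genes, 7.11% rose and 6.55% fell in the cerebellum, and 2.09% rose and 2.35% fell in the hippocampus. Of 17 H3K9 partners and readers, 1 rose and 1 fell in the cerebellum and 1 rose in the hippocampus. Of 9 H3K9 demethylases tested, 0 were called in the cerebellum, and 1 rose and 1 fell in the hippocampus. Of 16 tested partners, readers and erasers of DNA methylation and of 5 partners of ATRX and SMCHD1, 0 were called in either tissue. The medians of the 4 lists, as log2 differences per allele lost, ran from −0.051 to 0.014 (cerebellum) and from −0.042 to −0.0034 (hippocampus).

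*Atf7ip* rose in both tissues. Its product binds SETDB1 and stabilises it in the nucleus. In the cerebellum it was at 43.8 to 89.4 CPM in controls (median 83.7), 80.7 to 104 in cKO+/- (median 100.2) and 88.6 to 152 in cKO-/- (median 122). In the hippocampus it was at 49.9 to 63.9 CPM in controls, 49.7 to 67.8 in cKO+/- and 73.6 to 85.8 in cKO-/-, the last group above all others. The log2 differences per allele lost were 0.33 (SE 0.076, adjusted p = 0.00973) and 0.24 (SE 0.033, adjusted p = 0.000252) in edgeR's quasi-likelihood test. With the library of animal Sample_1160 included the hippocampal difference was 0.17 with adjusted p = 0.273.

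*Fam208a*, which encodes the TASOR subunit of the HUSH complex that works with SETDB1, fell in the cerebellum, from 97.5 ± 12.6 CPM in controls to 88.6 ± 7.53 in cKO+/- and 78.3 ± 9.87 in cKO-/- (SD, n = 6). The log2 difference was −0.16 (adjusted p = 0.0239), and without animal Sample_1129, Sample_1190 or Sample_1385 the adjusted p was 0.0591, 0.0503 and 0.0663. With the covariate for animal numbers it was 0.184. Its exons share 198 bases with *Ccdc66* on the other strand. *Kdm4b*, which removes H3K9 methylation, fell in the hippocampus, from 126 ± 14 CPM to 108 ± 8.25 (SD, n = 6) and 94.4 ± 16.1 (SD, n = 5), at −0.22 per allele lost (adjusted p = 0.00394). With the covariate it was −0.15 with adjusted p = 0.348. *Kdm3a*, another demethylase, rose there from 46.5 ± 2.50 CPM to 48.4 ± 3.89 (SD, n = 6) and 57.4 ± 4.70 (SD, n = 5), at 0.15 (adjusted p = 0.0180). Without animal Sample_1371 or Sample_1379 the *Kdm3a* call was lost, at adjusted p = 0.0602 and 0.0698, as it was with the covariate (0.359) and with animal Sample_1160 included (0.362).

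**Figure D4:**
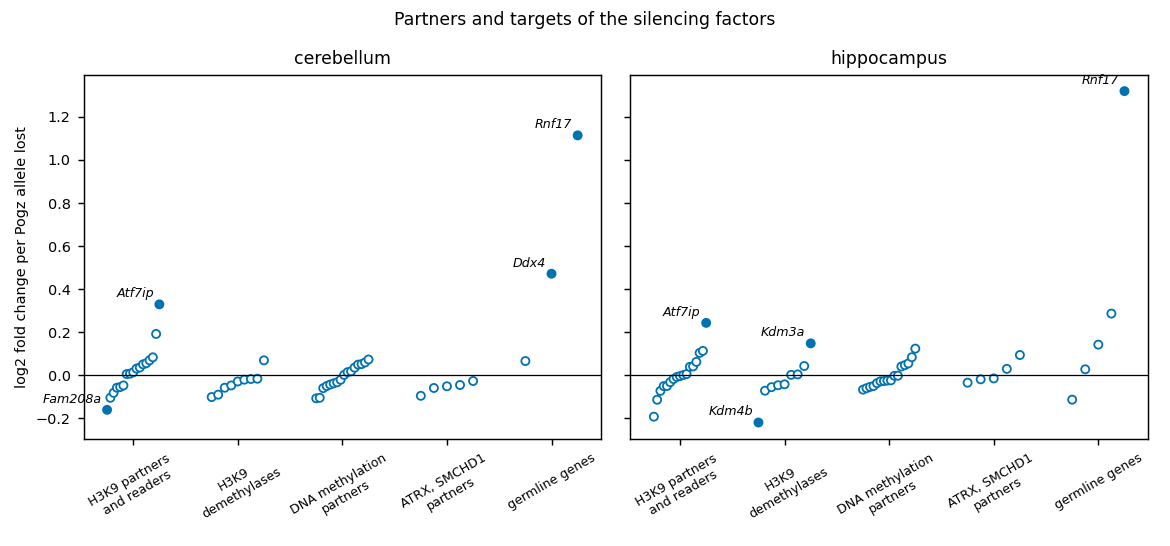
Log2 fold change per *Pogz* allele lost (y axis) for the tested genes of the partner lists and of the germline list (x axis) in both tissues. Each circle is a gene, filled and named where the adjusted p was under 0.05, and *Rnf17* is the highest in both tissues at 1.11 and 1.32.

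Germline genes that DNA methylation keeps silent in somatic tissue were listed as genes on which these factors are known to act. Of 14 listed, 3 could be tested in the cerebellum and 5 in the hippocampus, the others being too low. In the cerebellum 2 of the 3 rose, against 7.11% of all genes, and in the hippocampus only *Rnf17* did, against 2.09%. *Sycp3*, tested in both tissues, and *Dazl* and *Tdrd1*, tested in the hippocampus, were not called. Not all were silent in controls: *Sycp3* was above 1 CPM in all 6 of each tissue, and *Dazl* and *Ddx4* in all 6 of the hippocampus. *Rnf17*, a germ cell Tudor domain gene, rose in both tissues. In the cerebellum it was at 0.800 to 2.13 CPM in controls, 1.59 to 3.48 in cKO+/- and 3.94 to 8.84 in cKO-/-, and in the hippocampus at 0.432 to 0.943, 0.841 to 1.89 and 2.52 to 5.74. The cKO-/- libraries were above all others in both tissues. In the hippocampus 0 of 6 controls exceeded the filter of 1 CPM, so that *Rnf17* was tested there only through the mutant libraries. The log2 differences per allele lost were 1.11 (SE 0.13, adjusted p = 1.71e-05) and 1.32 (SE 0.13, adjusted p = 7.57e-06) in edgeR's quasi-likelihood test.

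*Ddx4*, the germ cell helicase also called Vasa, rose in the cerebellum, from 0.868 to 2.41 CPM in controls and 1.16 to 1.90 in cKO+/- to 1.80 to 5.44 in cKO-/-. The log2 difference was 0.47 (SE 0.10, adjusted p = 0.00697). In the hippocampus *Ddx4* gave 0.29 and did not pass, except without animal Sample_1385 (0.36, adjusted p = 0.0378). With the covariate for animal numbers the cerebellar difference was 0.48 with adjusted p = 0.0629.

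Markers of some other cell types moved with genotype in the cerebellum. Of 4 meningeal markers 3 rose, their summed level being 136 to 197 CPM in controls and 202 to 405 in cKO-/- mice. Of 4 microglial markers 3 rose, with sums of 100.1 to 109.6 and 101 to 169.8 CPM. Of 5 granule cell markers 0 were called, with sums of 3359.7 to 3794 CPM in controls and 1928 to 3851 in cKO-/-. Of 11 tested markers of dividing cells 2 fell, *Mcm5* and *Mcm7*, at −0.18 and −0.17 per allele lost, while the sums were 114.8 to 122 CPM in controls and 105 to 119 in cKO-/-. In the hippocampus 1 of 4 meningeal markers rose, with sums of 47.0 to 287 CPM in controls and 102 to 362 in cKO-/-, and 0 of 4 microglial and 0 of 13 proliferation markers were called. No marker of these 4 lists was at 0 in all libraries of a group. Calls in further lists were 2 of 4 astrocyte markers, 2 of 4 markers of hippocampal neurons, 1 of 2 of immature neurons and 1 of 3 of midbrain and brainstem, all higher in the cerebellum. In the hippocampus 1 of 4 astrocyte and 1 of 4 endothelial markers rose and 1 of 5 markers of hippocampal neurons fell. The choroid plexus sums reached 16.9 CPM in cerebellar controls, where 1 of the 5 markers was at 0 throughout, and 3129.8 and 2993 CPM in cKO+/- and cKO-/- mice, and 0 of the 3 markers tested were called. The part of such cells in the values of the silencing factors was not tested.

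Animal numbers also moved with genotype: every control was numbered between Sample_1120 and Sample_1219, whereas 3 cKO+/- and 4 cKO-/- animals were outside that range. With a covariate for it 0 of the 9 factors tested in the cerebellum and 0 of the 10 in the hippocampus were called. Few genes passed at all in that fit, 2.2% of those tested in the cerebellum and 0.474% of those in the hippocampus. For the cerebellum *Setdb1* was then at −0.11 (adjusted p = 0.436), *Dnmt3b* at −0.17 (0.489), *Suv39h1* at −0.042 (0.668) and *Dnmt1* at −0.039 (0.807) per allele lost. What the numbers stand for is not given in the sources used here.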

How the data were processed

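Per the labels and the study's methods, poly(A) RNA of adult cerebellum and hippocampus was sequenced, aligned and counted with STAR 250a, and the authors deposited 1 table of raw counts per tissue, whole numbers per gene without normalization. The methods name mm9, whereas the coordinates in the deposited tables are of GRCm38. Whether strand was used, and what became of reads with several matches, is not given in the sources used here. The tables hold 13 rows whose gene names had turned into dates, which were kept under those names.

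CPM and RPKM (with TMM factors, for RPKM over both tissues) and all tests were computed here with edgeR 4.0.16 in R 4.3.3. Genes above 1 CPM in at least 6 of a tissue's 18 libraries were tested with the quasi-likelihood F-test (legacy form, TMM factors) on sex and the number of intact alleles (2, 1, 0), with the sign given per allele lost, and adjusted by Benjamini-Hochberg over all genes tested at 0.05. Genotypes as groups, tissue by allele and sex by allele interactions, and the tissues of the 12 control libraries were fitted likewise. The comparison of control tissues took genes that passed the filter in either tissue. The study's reporting checklist mentions 1 outlying RNA sample that was dropped, without naming it, and the hippocampal library of animal Sample_1160 was left out here, since its values stand apart, giving 17 libraries; the filter and factors used all 18. Intervals are 95%. The fits were checked on simulated counts with changes larger than the members' differences per allele lost, so the recovery of differences as small as theirs was not checked.

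The members, the lists and the alternatives were chosen with earlier results of these data known. Named genes are the 10 members, *Pogz* and every gene of the partner and germline lists called in either tissue in the fit per allele. Marker genes, genes of the partner lists set beside a paralogue, *Gabra6* and *Ttr* were named after their values were seen. Alternatives were DESeq2 1.42.0, RLE factors, no filter, the bias-adjusted fit, no sex term, all hippocampal libraries, a covariate for animal numbers outside Sample_1120 to Sample_1219, each animal left out in turn, and the animal as a replicate block. The block is set by the animal numbers in the labels: over 17 animals, the deviations of an animal's 2 tissues from their group means correlated at a median of 0.217 (−0.148 to 0.435). Each library is 1 animal, so the spread is between animals. RefSeq promoter windows were matched by symbol.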

Additional observations from a re-analysis of the deposited data

Results flagged for a closer look

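In 7 of 60 groups of 6 libraries, 1 library lay far from the other 5 by Dixon's ratio at its 95% critical value, where chance gives about 1 in 20. Of these, 2 came from the hippocampal cKO-/- library of animal Sample_1160, in which *Trim28* was at 277 CPM (others 142 to 179) and *Atrx* at 82.1 (others 219 to 299.6). *Setdb1* was at 89.5 CPM in the cerebellar control of animal Sample_1129 (others 54.2 to 62.3) and at 62.6 in the hippocampal cKO+/- library of animal Sample_1120 (others 53.0 to 55.8). *Suv39h2* was at 8.43 CPM in the hippocampal control of animal Sample_1155 (others 6.64 to 7.31). In the hippocampal cKO+/- library of animal Sample_1433, *Ehmt2* was at 233 CPM (others 262 to 268) and *Atrx* at 291 (others 207 to 229.7).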

How the results depend on the processing

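With DESeq2 2 members were called per allele lost in the cerebellum and 1 in cKO-/- versus control, with the bias-adjusted fit 1 and 1, and without the sex term 1 per allele lost. Of the 14027 genes tested there, DESeq2 called 2569 and 2526, the bias-adjusted fit 1935 and 1803, and the fit without the sex term 2007. The other counts of called members kept within 1.5 times of the reported ones under these fits, RLE factors, no filter, all hippocampal libraries and the covariate for animal numbers. The replicate block for the animal left 0 of 9 members called for the tissue difference and 7 of 10 between control tissues, and turned the tissue difference of *Smchd1* to 4.55e-05. Leaving out each animal in turn gave 0 to 2 called members per allele lost in the cerebellum and in its cKO-/- versus control comparison, 0 to 1 per allele lost in the hippocampus and for the tissue difference, 6 to 7 between control tissues and 0 to 0 in the remaining comparisons. The cerebellar fits that called 1 or 2 members called 1450 to 2572 genes per allele lost and 1452 to 2476 in cKO-/- versus control. Those that called 1 in the hippocampus and for the tissue difference called 442 and 256 genes. Across all fits without 1 animal the log2 difference per allele lost ran in the cerebellum from −0.075 to 0.012 (*Atrx*), −0.035 to 0.0086 (*Ehmt2*), −0.0604 to 0.0067 (*Smchd1*) and −0.056 to 0.013 (*Suv39h2*), in the hippocampus from −0.0078 to 0.085 (*Dnmt3b*) and −0.00034 to 0.059 (*Suv39h2*), and for the tissue difference from −0.071 to 0.024 (*Smchd1*). The covariate for animal numbers turned *Suv39h2*, *Atrx* and *Smchd1* in the cerebellum to 0.0595, 0.0202 and 0.0175, *Suv39h2* and *Dnmt3b* in the hippocampus to −0.0024 and −0.023, and the tissue difference of *Suv39h2* and *Atrx* to −0.072 and −0.0099. All hippocampal libraries turned *Trim28*, *Ehmt2* and *Atrx* there to 0.014, 0.025 and −0.0051, and the tissue difference of *Trim28* and *Ehmt2* to 0.069 and 0.037. The covariate ended 4 calls of partner and germline genes and all hippocampal libraries ended 2: *Fam208a*, *Ddx4*, *Kdm3a* and *Kdm4b* under the first, *Kdm3a* and *Atf7ip* under the second. The cause of these changes was not tested. With 7 to 35 reads per cerebellar library, *Uhrf1* was below the filter and was not tested there.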
